A study of Mus musculus with 8 samples.

Results

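Histone lysine methyltransferases add methyl groups to histone tails, and histone lysine demethylases take them off. Expression of these genes was followed in neural stem and progenitor cells from fetal mouse brain that lacked Kat7 or kept it. The genes were chosen by symbol and not by their values: every autosomal protein-coding gene of the Kdm, Kmt, Setd and Nsd series, Setdb1 and Setdb2 included. This gave 36 of the 27179 genes counted, 21 methyltransferases or related SET domain genes and 15 demethylases. Reads were too few to test 1 of them, Kdm4d, which left 35 among 13498 tested genes. Another 3 genes of the same families lie on the X or Y chromosome and were not included.

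RNA came from 8 neurosphere cultures, each grown from 1 C57BL/6 fetus at E14.5 (E for embryonic day), a stage of cortical neurogenesis. Neurospheres are clumps of dividing neural precursors kept in suspension. Of the fetuses, 4 were Kat7 deleted (Kat7lox/loxNesCreT/+) and 4 were Kat7 intact (Kat7+/+NesCreT/+), so both genotypes carried the NesCre transgene, in which Nestin sequences drive Cre recombinase in neural precursors. The 3 litters of intact fetuses and the 3 of deleted ones were all different, so a litter effect cannot be told apart from one of genotype. There was a pair of littermates on each side, intact replicates 1 and 2 and deleted replicates 3 and 4. Polyadenylated RNA was read in bulk, where fewer cells of a type and less RNA per cell cannot be told apart.

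As background, most lysine methyltransferases carry a catalytic SET domain and use S-adenosylmethionine as the methyl donor. Demethylases are of 2 classes: the flavin-dependent amine oxidases Kdm1a and Kdm1b, and the JmjC enzymes, which need iron, oxygen and 2-oxoglutarate. Kat7, also called HBO1, is a histone acetyltransferase whose complexes hold ING subunits that bind methylated histone H3 lysine 4 (H3K4). Methylation of H3K4 marks promoters and enhancers, that of H3K36 the bodies of transcribed genes, and that of H3K9, H3K27 and H4K20 mostly silent or compacted chromatin.

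Kat7 (Entrez 217127, GRCm38 chr11:95271853-95310246) was read first, as a check of the labels. It stood at 77.1 to 92.1 CPM in intact libraries, where CPM is the count scaled to a common library size and composition, and at 26.4, 0.367, 13.9 and 0.0870 CPM across deleted replicates 1 to 4. All deleted libraries were below all intact ones, yet deleted replicates 1 and 3 kept 416 and 253 reads. The log2 fold change was -3.02 ± 1.10 (SE), with an edgeR adjusted p of 0.128. An exact two-sided permutation test gave p = 0.0286, the smallest possible with 4 against 4. Each library held between 10687820 and 22444360 counts, which makes 1 read equal to 0.0436 to 0.0918 CPM. Mitochondrial transcripts took 18.95% to 23.5% of intact libraries and 29.9%, 18.95%, 17.1% and 34.4% of deleted replicates 1 to 4. Markers of neural stem and progenitor cells were all present, at a summed 6841 to 7612 CPM in intact and 4659 to 7745 CPM in deleted cultures. Some markers of other cells were called, but the summed levels overlapped between genotypes except for ependymal and microglia markers. Summed astrocyte markers were at 346 to 573 CPM in intact and 536 to 5293 CPM in deleted libraries, with 5 of 10 called higher by edgeR. Mesenchymal and contractile markers summed to 8.31 to 14.8 CPM in intact libraries, against 7.54, 860, 36.7 and 254 CPM across deleted replicates 1 to 4. Of the 5 tested markers of this list, edgeR called 2 higher. Of 8 neuron markers, edgeR called 3 lower (summed 1048 to 1094 CPM in intact, 792 to 1226 CPM in deleted). By its unadjusted p (under 0.05), 4 neuron markers were lower and 1 was higher. Of 7 oligodendrocyte lineage markers, edgeR called 2 lower (1367 to 1728 CPM and 449.6 to 1696 CPM). Ependymal markers summed to 9.57 to 13.5 CPM and 19.1 to 36.1 CPM, with 1 of 2 called higher, and endothelial markers to 3.84 to 7.30 CPM and 1.92 to 15.8 CPM, with 1 of 2 called lower. Microglia markers summed to 2.74 to 3.71 CPM in intact and 0.609 to 2.41 CPM in deleted libraries, without overlap. Red blood cell markers summed to 0.359 to 0.785 CPM and 0.190 to 1.22 CPM. In each of these 2 lists 1 marker was tested, and edgeR called 0. The microglia genes C1qa and C1qb and the globins Hba-a1 and Hbb-bs were at 0 reads in all libraries. The part that these markers and the mitochondrial share have in the differences below was not tested, except where a value without a library is given.

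Neurosphere cells expressed almost the whole family, at levels that differed widely between members. Levels of different genes are compared as RPKM, the CPM divided by the gene's exon length in kilobases. In intact cultures the median member was at 8.76 RPKM, against 8.001 for all genes tested. Kdm1a (LSD1), which removes mono- and dimethylation of H3K4, was the highest at 69.0 ± 3.57 RPKM (SD, n = 4), above 94.1% of tested genes. Next came Kmt5a, which monomethylates H4K20, at 49.2 ± 4.25 RPKM, and Setd5, a SET domain protein of chromatin complexes, at 32.0 ± 2.97 RPKM. These first 3 were separated by more than their spread. The order below them was less sharp: Kdm3a at 25.3 ± 4.59 and Kdm4a at 23.4 ± 1.86 RPKM, both H3K9 demethylases, differed by less than their SD. At the low end were Setd4 at 1.86 ± 0.517, Kmt2d at 1.78 ± 0.670 and Setd1b at 0.316 ± 0.125 RPKM. Kdm4d had 0 to 4 reads in intact and 1 to 8 reads in deleted libraries.

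**Figure D1:**
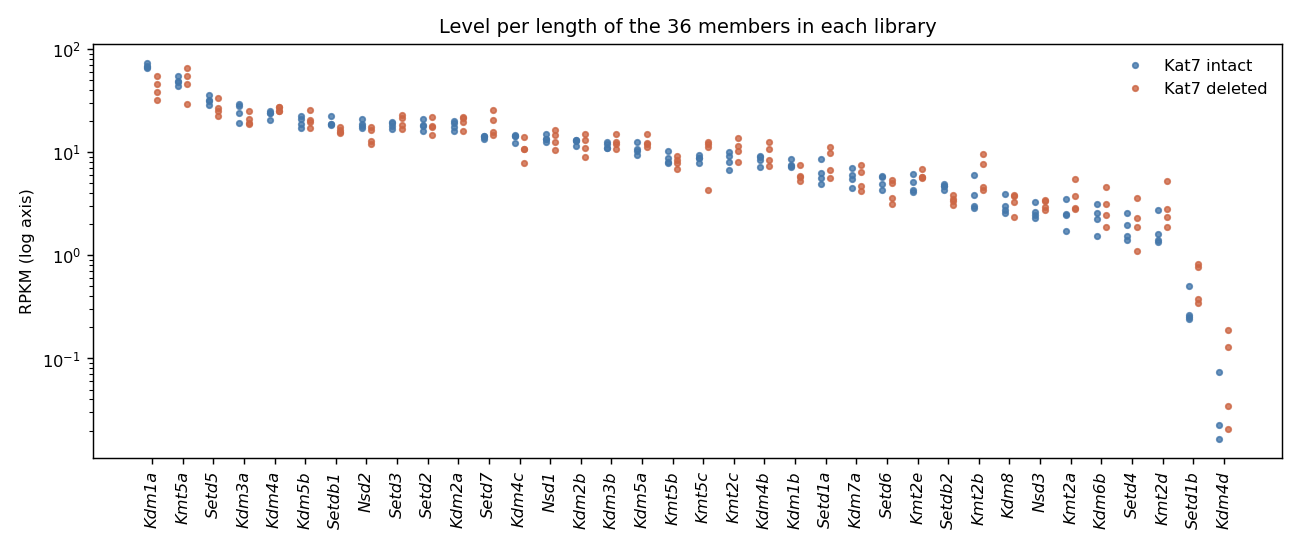
Length-scaled level (RPKM, log axis) of each of the 36 genes, with a point for every library of both genotypes. Kdm1a heads the order in intact cultures with a mean of 69.0 RPKM, and Setd1b is the lowest tested gene at 0.316 RPKM.

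Few of these genes differed between genotypes beyond the spread of the cultures. By edgeR's quasi-likelihood test, 1 of the 35 tested members was called at an adjusted p under 0.05 (2.86%), against 7.90% of all genes tested. That gene was Kdm1a, which fell, where 2.80% of all genes were called lower. None was called higher, where 5.10% of all genes were. DESeq2 called 2 members (5.71%, against 16.3% of all genes), 0 higher (9.71% of all genes) and 2 lower (6.59% of all genes). An unadjusted p under 0.05 was reached by 6 members (17.1%, against 26.2% of all genes), 2 of them higher (15.8% of all genes) and 4 lower (10.4% of all genes). The genotypes did not overlap for 5 members (14.3%, against 19.9% of all genes): Kdm1a, Setdb1 and Setdb2 were lower in every deleted culture than in any intact one (8.57%, against 9.21%), and Setd7 and Kdm4a were higher (5.71%, against 10.7%). The median log2 fold change was 0.11 over the members and 0.05 over all genes, and its median size was 0.24 and 0.30. The 21 methyltransferases and related genes had a median of 0.21 (12 above 0, 9 below), and the 14 tested demethylases had a median of 0.08 (8 above 0, 6 below). Members varied more among deleted than among intact cultures, as most genes did. Their median SD of log2 CPM was 0.16 in intact and 0.32 in deleted libraries, against 0.17 and 0.38 for all genes.

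**Figure D2:**
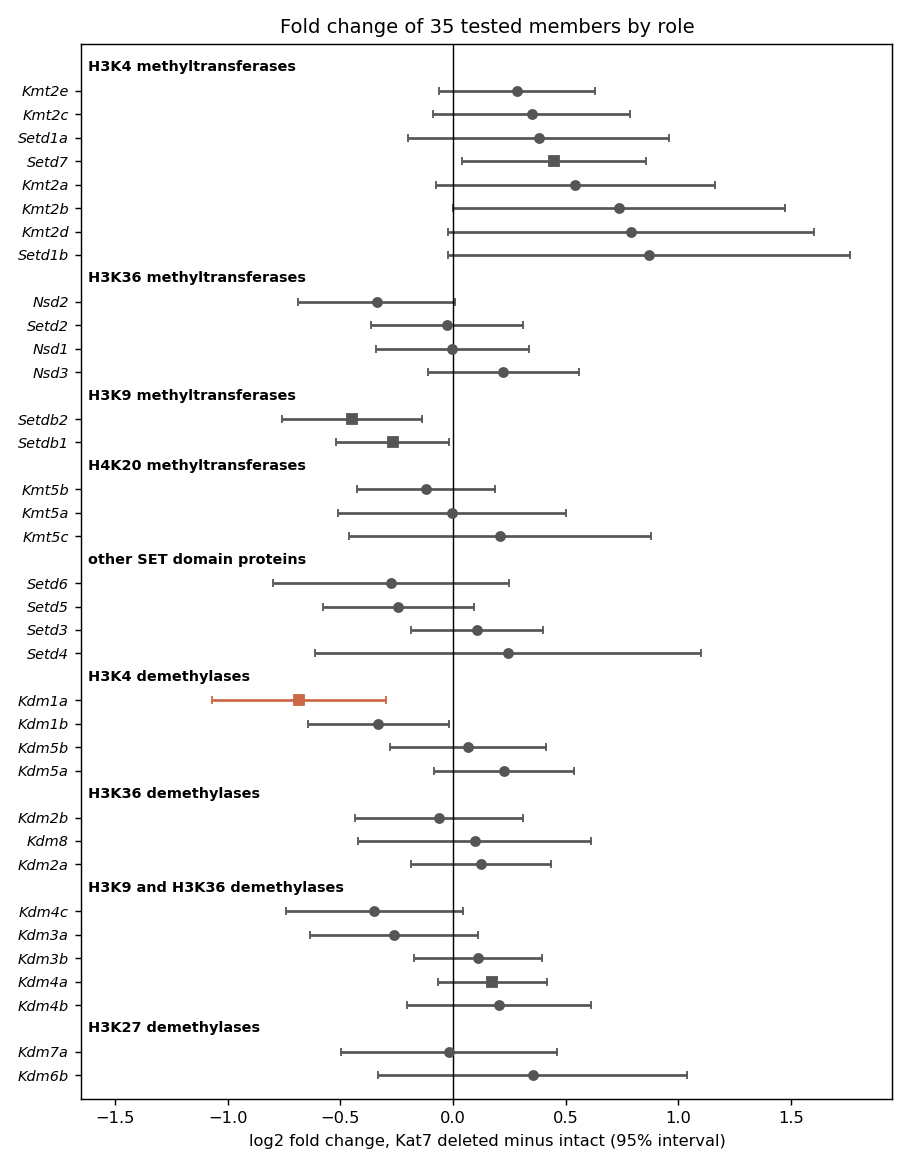
Log2 fold change, deleted minus intact, of the 35 tested genes ordered by role, with bars for the 95% interval. Squares mark the 5 genes whose genotypes do not overlap, and the orange point is Kdm1a, the member called by edgeR. All 8 H3K4 methyltransferases lie above 0.

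The sequences just upstream of the 5 genes with non-overlapping genotypes are shown to let their promoters be compared. They are RefSeq sequence of GRCm38.p6, 120 bases each, 5′ to 3′ on the minus strand, on which all 5 genes lie, and each ends at the base before the outermost annotated start. Capitals mark matches on either strand to CCAAT (the NF-Y box, ATTGG when reversed), GGGCGG (the SP1 GC box, CCGCCC when reversed) or CCGGAA (an ETS core, TTCCGG when reversed). These are chr4:136602788-136602907 for Kdm1a, chr3:95357203-95357322 for Setdb1, chr14:59440881-59441000 for Setdb2, chr3:51560824-51560943 for Setd7 and chr4:118180091-118180210 for Kdm4a.
Kdm1a: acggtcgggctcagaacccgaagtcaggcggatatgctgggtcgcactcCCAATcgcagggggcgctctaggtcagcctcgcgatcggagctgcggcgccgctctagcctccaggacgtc
Setdb1: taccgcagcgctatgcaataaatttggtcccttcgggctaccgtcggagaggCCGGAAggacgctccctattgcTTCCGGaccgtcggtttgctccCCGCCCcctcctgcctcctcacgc
Setdb2: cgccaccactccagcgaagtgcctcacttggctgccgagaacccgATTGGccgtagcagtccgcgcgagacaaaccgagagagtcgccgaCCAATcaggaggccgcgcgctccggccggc
Setd7: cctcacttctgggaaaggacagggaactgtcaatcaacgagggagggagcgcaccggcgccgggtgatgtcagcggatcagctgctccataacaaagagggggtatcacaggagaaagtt
Kdm4a: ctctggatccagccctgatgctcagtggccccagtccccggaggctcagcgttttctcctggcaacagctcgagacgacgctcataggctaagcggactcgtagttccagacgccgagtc

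All 5 stretches were rich in G and C, from 56.7% in Setd7 to 68.3% in Setdb2. They held 14 CpG pairs in Kdm1a, 12 in Setdb1, 16 in Setdb2, 6 in Setd7 and 9 in Kdm4a. The 3 genes that were lower each had at least 1 match, and the 2 that were higher had none, which says only that these letters are not in these windows. Over 34 promoter windows of 24 members, 300 bases each from 250 before to 50 after a start, CCAAT was found in 44.1%, GGGCGG in 67.6% and CCGGAA in 29.4%. The shares over 13138 such windows of 10293 tested genes were 38.2%, 62.9% and 26.5%. Of 3 other motifs searched on both strands, the NRF1 core TGCGCA was in 20.6% of member and 13.7% of all windows. The E2F motifs TTCCCGC or TTGGCGC were in 5.9% and 12.2%, and the CRE core TGACGT in 5.9% and 11.5%. The median window held 28 CpG pairs in members and 21 in all genes.

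Among the H3K4 demethylases, Kdm1a fell and its closest relative Kdm1b was lower by an amount that missed the threshold, while Kdm5a and Kdm5b were slightly higher. Kdm1a (Entrez 99982, GRCm38 chr4:136550533-136602787) was at 204, 223, 208 and 197 CPM across intact replicates 1 to 4, and 138, 96.4, 167 and 117 CPM across deleted replicates 1 to 4. All 4 deleted cultures were below all intact ones, the lowest being deleted replicate 2. The means were 208 ± 10.8 and 129 ± 30.1 CPM (SD, n = 4), a 1.61-fold fall. On the log2 scale the difference was -0.68 ± 0.17 (SE, 95% interval -1.07 to -0.30) with an edgeR adjusted p of 0.0455. An exact two-sided permutation test gave p = 0.0286, the smallest it allows. The call lay close to the threshold. It held in 13 of 23 settings, all with a negative log2 fold change between -0.97 and -0.57. It was lost without any single intact library or without deleted replicate 4 (edgeR adjusted p 0.0909 to 0.139). It was also lost with scaling by total counts alone (-0.82, edgeR adjusted p 0.0517), with littermates summed (-0.70, edgeR adjusted p 0.125) and with litter as a random block in limma (-0.74, adjusted p 0.0860).

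The libraries that stood apart changed the size of the Kdm1a difference but not its direction. Without deleted replicates 1 and 3, which kept Kat7 reads, the log2 fold change was -0.97 with an edgeR adjusted p of 0.00519. Without deleted replicate 2, which had the most mesenchymal marker RNA, it was -0.57 with an edgeR adjusted p of 0.0338. Without deleted replicates 1 and 4, which had the highest mitochondrial shares, it was -0.68 with an edgeR adjusted p of 0.0877.

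Kdm1b, the other flavin-dependent H3K4 demethylase, was at 32.9 ± 2.59 CPM in intact and 26.1 ± 4.16 CPM in deleted cultures. Its log2 fold change was -0.33 ± 0.14 (SE), with an edgeR adjusted p of 0.168. On the RPKM scale Kdm1a exceeded Kdm1b 8.996 ± 0.250-fold in intact cultures and 7.80, 4.26, 9.62 and 7.33-fold in deleted replicates 1 to 4. Kdm5a and Kdm5b are JmjC enzymes that remove di- and trimethylation of H3K4. Kdm5a went from 118 ± 14.48 to 138 ± 17.6 CPM (10.8 to 12.6 RPKM), a log2 fold change of 0.23 ± 0.14, and Kdm5b from 125 ± 14.9 to 131 ± 22.8 CPM (19.9 to 20.8 RPKM), 0.06 ± 0.15. Neither passed the edgeR test (adjusted p 0.324 and 0.821). Kdm1a made up 64.3 ± 1.801% of the summed RPKM of these 4 genes in intact cultures and 51.8 ± 8.44% in deleted ones.

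All 8 H3K4 methyltransferases had higher means in deleted cultures, with a median log2 fold change of 0.49 and a range of 0.28 to 0.87. The edgeR test called none of them, 2 had an unadjusted p under 0.05 and DESeq2 called 0. Setd7, which monomethylates H3K4 and several other proteins, had the highest level of the 8 at 14.1 ± 0.404 RPKM in intact cultures. It (Entrez 73251, chr3:51515318-51560823) was at 106, 104, 105 and 99.4 CPM in intact replicates 1 to 4 and at 108, 190.1, 152 and 116 CPM across deleted replicates 1 to 4. The genotypes did not overlap, but deleted replicate 1 stood just above the highest intact culture. This was a log2 fold change of 0.45 ± 0.18 (SE, 95% interval 0.04 to 0.86) with an edgeR adjusted p of 0.158. It passed only without deleted replicates 1 and 4, a pair left out for its mitochondrial share.

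The other 7 belong to the COMPASS family or resemble it, and in all 7 the genotypes overlapped. Setd1a and Setd1b, catalytic subunits of the complexes that place most H3K4 trimethylation, went from 38.0 ± 9.38 to 49.4 ± 15.7 CPM (6.40 to 8.33 RPKM) and from 2.74 ± 1.08 to 5.03 ± 2.16 CPM (0.316 to 0.579 RPKM). The differences on the log2 scale were 0.38 ± 0.25 and 0.87 ± 0.39 (edgeR adjusted p 0.374 and 0.200). In the GENCODE annotation 51.85% of the exon bases of Setd1a lie in same-strand exons of other genes, so its value is uncertain.

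Kmt2a and Kmt2b (MLL1 and MLL2), which act at promoters such as those of Hox genes, were at 42.2 ± 12.2 and 33.2 ± 12.2 CPM in intact and at 61.5 ± 20.6 and 55.4 ± 21.2 CPM in deleted cultures. In RPKM these means were 2.57 and 3.93 in intact and 3.74 and 6.55 in deleted cultures, log2 fold changes of 0.54 ± 0.27 and 0.74 ± 0.32. Kmt2c and Kmt2d (MLL3 and MLL4), the enhancer monomethylases, went from 143 ± 24.8 to 182 ± 40.0 CPM (8.52 to 10.8 RPKM) and from 35.3 ± 13.3 to 61.0 ± 29.8 CPM (1.78 to 3.08 RPKM). The log2 fold changes were 0.35 ± 0.19 and 0.79 ± 0.36. Kmt2e (MLL5), a relative with little or no enzyme activity, went from 35.96 ± 6.87 to 43.8 ± 3.99 CPM (4.96 to 6.03 RPKM), 0.28 ± 0.15. For these 5 the edgeR adjusted p ran from 0.191 (Kmt2b) to 0.285 (Kmt2c).

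Within the autosomal set, the RNA of the H3K4 methyltransferases relative to that of the H3K4 demethylases was higher in every deleted culture than in any intact one. The summed RPKM of the 8 methyltransferases was 41.9, 40.2, 37.0 and 51.2 in intact replicates 1 to 4 and 49.6, 56.1, 61.5 and 66.4 in deleted replicates 1 to 4. That of the 4 demethylases was 106, 116, 103 and 104 in intact and 83.3, 80.2, 92.8 and 73.4 in deleted replicates. The ratio of the first sum to the second was therefore 0.395, 0.347, 0.359 and 0.492 in intact replicates 1 to 4 and 0.596, 0.699, 0.662 and 0.904 in deleted replicates 1 to 4. The genotypes did not overlap, with means of 0.398 ± 0.0656 and 0.715 ± 0.133 (SD, n = 4). With Kdm1a left out the separation was gone: the ratio was 0.958 to 1.32 in intact and 1.16 to 1.91 in deleted libraries. With Setd7 left out it stayed apart, at 0.220 to 0.362 and 0.377 to 0.690. With Kmt2e left out as well, the margin was small, at 0.180 to 0.302 and 0.304 to 0.596. Kdm5c and Kdm5d, the X and Y linked relatives of Kdm5a and Kdm5b, were not in the sums. Kdm5c was higher in every deleted culture than in any intact one (means 20.4 and 24.4 RPKM, log2 fold change 0.26 ± 0.13, edgeR adjusted p 0.245). Kdm5d was level, with means of 9.55 and 9.44 RPKM. The ratio was formed with the single genes' values known, so no p is given, and messenger RNA levels are not enzyme activities.

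**Figure D3:**
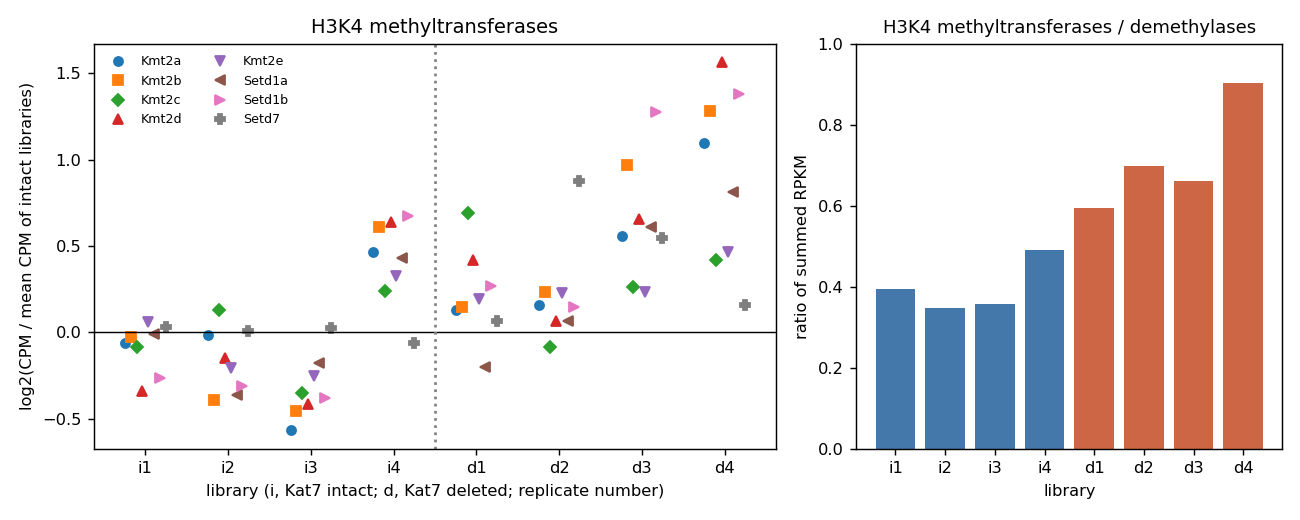
Left, log2 of each library's CPM over the intact mean for the H3K4 methyltransferases. Right, summed RPKM of these genes divided by that of the autosomal H3K4 demethylases, as bars from 0 for each library, with 0.347 to 0.492 in intact and 0.596 to 0.904 in deleted cultures.

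Base composition, length and single libraries moved with these values. Intact replicate 4 was the highest intact library for 7 of the 8 H3K4 methyltransferases and for 21 of the 35 tested members (60.0%, against 31.9% of all genes). Deleted replicate 4 was the highest deleted library for 6 of the 8 and for 12 of the 35 tested members (34.3%, against 22.9% of all genes). Across the 35 members the log2 fold change correlated with transcript GC content at a Spearman rho of 0.51 and with gene length at 0.41, against 0.26 over 12036 genes with a GENCODE transcript and -0.01 over 13498 genes. These are descriptions over genes that share the same 8 libraries. Within single libraries, the deviation from the intact mean correlated with GC content across members at 0.27, 0.01, 0.64 and 0.50 in deleted replicates 1 to 4, against -0.60 to 0.38 in intact libraries. Deleted replicates 1 and 2 lay within that intact range. Their part in the result was not tested.

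Both H3K9 methyltransferases of the set were lower in every deleted culture than in any intact one, without passing the edgeR test. Setdb1 (Entrez 84505, chr3:95323525-95357202) trimethylates H3K9 at retroelements and silenced genes. It was at 87.0, 85.5, 88.0 and 105 CPM in intact replicates 1 to 4 and at 72.7, 71.7, 82.3 and 76.8 CPM across deleted replicates 1 to 4. The lowest intact culture exceeded the highest deleted one by a small margin. The means were 19.6 ± 1.96 and 16.3 ± 1.03 RPKM (SD, n = 4), the log2 fold change was -0.27 ± 0.11 (SE, 95% interval -0.52 to -0.02), and the edgeR adjusted p was 0.166.

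Setdb2, a smaller relative, was less abundant (Entrez 239122, chr14:59402009-59440880). It was at 15.1, 14.4, 14.3 and 13.2 CPM in intact replicates 1 to 4 and at 10.6, 11.6, 10.2 and 9.39 CPM across deleted replicates 1 to 4. The genotypes were clearly apart and each was tight, with means of 4.69 ± 0.263 and 3.44 ± 0.299 RPKM. The difference, as log2 fold change, was -0.45 ± 0.14 (SE, 95% interval -0.76 to -0.14) with an edgeR adjusted p of 0.0799. DESeq2 called Setdb2, and so did edgeR without deleted replicate 2. Of the 10 tested partners of Setdb1 in heterochromatin, edgeR called 0, with 2 lower and 0 higher by unadjusted p (under 0.05), and DESeq2 called 0. Trim28 (KAP1), the corepressor that brings Setdb1 to its targets, had the highest RPKM of the 10 in intact cultures. It was at 466, 519, 487 and 497 CPM in intact replicates 1 to 4. In deleted replicates 1 to 4 it was at 268, 488, 497 and 328 CPM. Deleted replicates 1 and 4 were low and the other two were level with the intact cultures, and the edgeR adjusted p was 0.370.

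**Figure D4:**
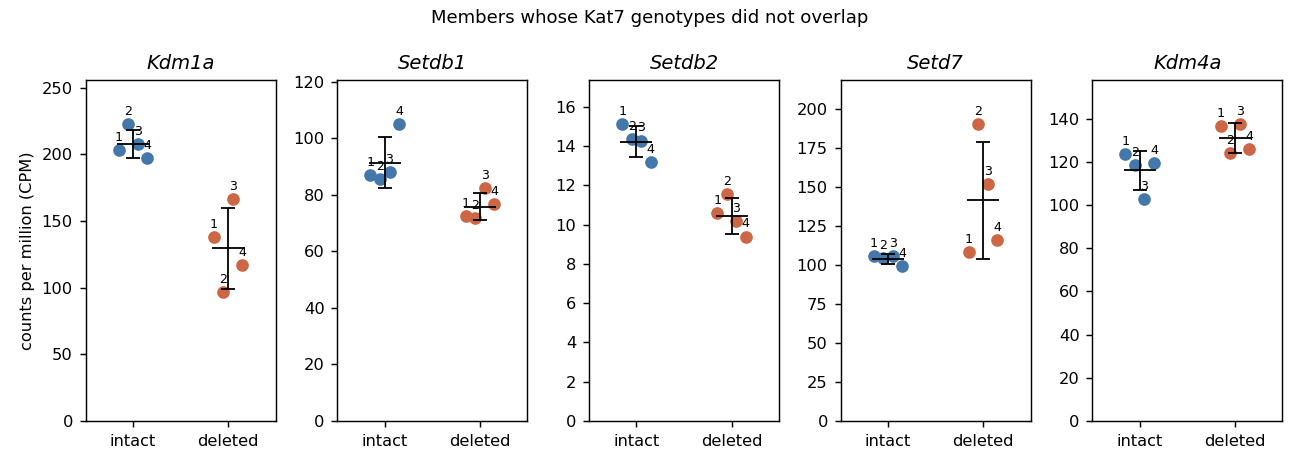
CPM of the 5 genes whose genotypes do not overlap, Kdm1a, Setdb1, Setdb2, Setd7 and Kdm4a, with digits for the replicate numbers and bars for mean ± SD (n = 4). Kdm1a runs from 197 to 223 CPM in intact and from 96.4 to 167 CPM in deleted cultures.

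The JmjC demethylases of H3K9 and H3K36 differed little. Kdm4a (JMJD2A; Entrez 230674, chr4:118136957-118180090), which acts on both marks, was at 124, 119, 103 and 119 CPM in intact replicates 1 to 4 and at 137, 124, 138 and 126 CPM across deleted replicates 1 to 4. The genotypes did not overlap only by the difference between 123.7 CPM in intact replicate 1 and 124.1 CPM in deleted replicate 2. The fitted log2 fold change was 0.17 ± 0.11 (SE), with an edgeR adjusted p of 0.331.

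Kdm3a (JMJD1A; Entrez 104263, chr6:71588970-71632990), an H3K9 demethylase induced by low oxygen in many cells, had the highest level of its role group. It was at 118, 139.6, 95.2 and 145 CPM in intact replicates 1 to 4 and at 92.1, 104, 94.8 and 125 CPM across deleted replicates 1 to 4. The genotypes overlapped, and the log2 fold change was -0.26 ± 0.16 with an edgeR adjusted p of 0.346. Kdm3b, its relative, went from 83.1 ± 6.06 to 89.7 ± 12.1 CPM (11.7 to 12.6 RPKM), a log2 fold change of 0.11 ± 0.13. The GENCODE annotation puts 24.6% of its exon bases under opposite-strand exons. Kdm4b and Kdm4c act on the same marks as Kdm4a. Kdm4b went from 39.0 ± 4.28 to 45.0 ± 10.8 CPM (8.47 to 9.75 RPKM), 0.20 ± 0.18, and Kdm4c from 61.4 ± 4.75 to 48.1 ± 11.4 CPM (13.9 to 10.9 RPKM), -0.35 ± 0.17. For these 3 the edgeR adjusted p was 0.610, 0.509 and 0.237.

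The H3K36 methyltransferases showed no call and a median log2 fold change of -0.02. At an unadjusted p under 0.05 edgeR had 0, and DESeq2 called 0. Nsd2 (WHSC1; Entrez 107823, chr5:33820676-33897966), which dimethylates H3K36, had the highest level of the 4. It was at 229, 238, 219.8 and 268 CPM in intact replicates 1 to 4 and at 155, 224, 211 and 165 CPM across deleted replicates 1 to 4. Deleted replicates 1 and 4 were low and deleted replicate 2 lay within the intact range. The log2 fold change was -0.34 ± 0.15 (SE, 95% interval -0.69 to 0.01) with an edgeR adjusted p of 0.200. Nsd1, another H3K36 dimethylase, was at 174 ± 12.2 and 173 ± 31.5 CPM (13.6 RPKM in both), with a 95% interval of -0.34 to 0.34 around its log2 fold change. Setd2, which trimethylates H3K36 behind RNA polymerase II, was at 154 ± 17.6 and 151 ± 24.5 CPM (18.4 and 18.1 RPKM), with an interval of -0.37 to 0.31. Nsd3 went from 31.3 ± 5.22 to 36.5 ± 3.99 CPM (2.69 to 3.14 RPKM), a log2 fold change of 0.22 ± 0.15. For these 3 the edgeR adjusted p was 0.994, 0.926 and 0.367.

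Erasers of H3K36 methylation were as close. Kdm2a (FBXL11; Entrez 225876, chr19:4316144-4398721), which binds unmethylated CpG islands and demethylates H3K36, was at 128, 146, 118 and 138 CPM in intact replicates 1 to 4 and at 116, 156, 161 and 143 CPM across deleted replicates 1 to 4. The ranges overlapped, with a log2 fold change of 0.12 ± 0.14 and an edgeR adjusted p of 0.605. Kdm2b, which also recruits a Polycomb complex to CpG islands, was at 68.6 ± 4.38 and 65.8 ± 14.6 CPM (12.6 and 12.1 RPKM), -0.06 ± 0.16. Kdm8 (JMJD5) was at 7.55 ± 1.52 and 8.08 ± 1.65 CPM (3.09 and 3.30 RPKM), 0.10 ± 0.23. The edgeR adjusted p was 0.845 and 0.824.

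The H4K20 methyltransferases had similar means in both genotypes, but Kmt5a and Kmt5c scattered more among deleted cultures. Kmt5a (SET8; Entrez 67956, chr5:124439930-124462311), the H4K20 monomethylase needed for cell division, was at 133, 134, 150.0 and 122 CPM in intact replicates 1 to 4. In deleted replicates 1 to 4 it was at 80.9, 180.2, 151 and 125 CPM. Deleted replicate 1 was below and deleted replicates 2 and 3 above all intact cultures. On the log2 scale the difference was -0.01 ± 0.22 with a 95% interval of -0.51 to 0.50 and an edgeR adjusted p of 0.9899. Kmt5b and Kmt5c carry H4K20 on to di- and trimethylation. Kmt5b was at 79.8 ± 10.2 and 73.5 ± 8.88 CPM (8.76 and 8.07 RPKM), -0.12 ± 0.13, and Kmt5c at 19.5 ± 1.46 and 22.5 ± 8.66 CPM (8.72 and 10.1 RPKM), 0.21 ± 0.30. The edgeR adjusted p was 0.611 and 0.692. Deleted replicate 2 set the Kmt5c value: it was at 9.64 CPM there and at 25.0 to 28.4 CPM in the other deleted cultures, against 17.5 to 21.0 CPM in intact ones. Without that culture edgeR called Kmt5c higher.

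H3K27 demethylases were represented by Kdm7a and Kdm6b. Kdm7a (JHDM1D; Entrez 338523, chr6:39136620-39206773), which acts on H3K9 and H3K27 dimethylation, was at 58.2, 66.7, 43.0 and 52.8 CPM in intact replicates 1 to 4. In deleted replicates 1 to 4 it was at 44.8, 61.2, 40.4 and 71.7 CPM, which overlaps the intact range widely. This was a log2 fold change of -0.02 ± 0.21 with an edgeR adjusted p of 0.965. Kdm6b (JMJD3), which removes the Polycomb mark H3K27 trimethylation, was at 15.8 ± 4.45 and 20.2 ± 7.73 CPM (2.37 and 3.03 RPKM), a log2 fold change of 0.35 ± 0.30 and an edgeR adjusted p of 0.492.

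The remaining SET domain proteins, which were not listed under any of the marks above, also overlapped between genotypes. Setd5 (Entrez 72895, chr6:113077262-113153432), which is mutated in human intellectual disability, was at 206, 203, 186 and 232 CPM in intact replicates 1 to 4 and at 146, 163, 217 and 173 CPM across deleted replicates 1 to 4. Only deleted replicate 3 lay within the intact range. The difference, as log2 fold change, was -0.24 ± 0.15 with an edgeR adjusted p of 0.329. Setd3, the actin histidine methyltransferase, was at 50.6 ± 3.64 and 54.5 ± 7.62 CPM (18.6 and 19.99 RPKM), 0.11 ± 0.13. Setd4 was at 3.40 ± 0.945 and 4.06 ± 1.88 CPM (1.86 and 2.22 RPKM), 0.24 ± 0.38, and Setd6, which methylates the NF-κB subunit RelA, at 8.73 ± 1.30 and 7.21 ± 1.82 CPM (5.23 and 4.32 RPKM), -0.28 ± 0.23. For these 3 the edgeR adjusted p was 0.635, 0.722 and 0.482.

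The deleted cultures departed from the intact range to different degrees. In deleted replicates 3 and 4, which were littermates, 28 and 27 of the 35 members lay outside the range of the 4 intact libraries (80.0% and 77.1%, against 66.3% and 74.9% of all genes). In deleted replicates 1 and 2 they were 17 and 16 (48.6% and 45.7%, against 75.2% and 72.4%). The difference between the 2 pairs was not tested, since they are not groups of the study.

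Among genes of the same pathway, edgeR called 1 gene in each of 5 lists. DESeq2 called that gene too and 1 more in each list, which is named below beside its edgeR value, a choice made after the values were seen. The lists held 11 to 16 tested genes, so these counts are near the shares over all genes, 7.90% by edgeR and 16.3% by DESeq2. Among 16 tested histone lysine methyltransferases with other names, Ezh1, a catalytic subunit of Polycomb repressive complex 2, rose from 6.01 ± 0.464 to 16.9 ± 5.91 CPM. Intact libraries had 5.72 to 6.70 CPM and deleted replicates 1 to 4 had 14.6, 25.1, 11.1 and 16.7 CPM, with no overlap. The fitted log2 fold change was 1.49 ± 0.25 with an edgeR adjusted p of 0.0140, and Ezh1 was the gene edgeR called of those 16. DESeq2 also called Smyd2, a lysine methyltransferase, which edgeR did not (72.2 ± 5.41 to 51.4 ± 8.36 CPM, -0.49 ± 0.14, adjusted p 0.0600). Without intact replicate 2, 3 or 4, or with littermates summed, the call of Ezh1 was lost (edgeR adjusted p at most 0.0629). Ezh2, the paralog of Ezh1, named after its values were seen, was the more abundant form, with 31.2 ± 2.51 RPKM in intact cultures against 1.43 ± 0.111 RPKM for Ezh1. Ezh2 went from 83.2 ± 6.69 to 58.7 ± 15.3 CPM, a log2 fold change of -0.50 ± 0.18 that missed the threshold (edgeR adjusted p 0.127).

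The list of other demethylases and JmjC proteins had 11 tested genes, among them the X or Y linked Kdm5c, Kdm6a and Kdm5d left out of the set above. Of these edgeR called Jmjd6, a JmjC hydroxylase, which fell from 68.5 ± 6.58 to 50.1 ± 4.11 CPM (log2 fold change -0.45 ± 0.11, adjusted p 0.0477). DESeq2 also called Hr, a JmjC corepressor, which edgeR did not (8.14 ± 5.52 to 2.13 ± 1.85 CPM, -1.92 ± 0.63, adjusted p 0.0983). Of 14 COMPASS core and partner subunits, edgeR called Ncoa6, part of the Kmt2c and Kmt2d complexes, which rose from 24.5 ± 4.12 to 38.1 ± 4.17 CPM (0.63 ± 0.15, adjusted p 0.0396). DESeq2 also called Psip1 (LEDGF), a chromatin-binding partner of MLL complexes, which edgeR did not (157 ± 10.8 to 103 ± 27.3 CPM, -0.60 ± 0.20, adjusted p 0.0949). The median log2 fold change of those 14 was -0.09, with 9 below 0 and 5 above, beside 0.49 for the 8 H3K4 methyltransferases. Of 12 partners of Kdm1a in CoREST-type complexes, edgeR called Hmg20b (BRAF35), a subunit of that complex, which rose from 34.4 ± 3.32 to 49.3 ± 4.52 CPM (0.52 ± 0.12, adjusted p 0.0368). DESeq2 also called the deacetylase Hdac2, which edgeR did not (280.2 ± 13.9 to 189 ± 46.7 CPM, -0.57 ± 0.18, adjusted p 0.0859). The calls of Jmjd6, Ncoa6 and Hmg20b were lost without any single intact library and with litter as a random block. They were also lost without deleted replicate 1 or 3 (Jmjd6) and without deleted replicate 3 or 4 (Ncoa6 and Hmg20b), and over all alternatives their adjusted p reached 0.152, 0.179 and 0.154.

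Methylation also needs its cofactors. Of 15 tested genes that supply S-adenosylmethionine, flavin, iron or 2-oxoglutarate, edgeR called Mtap, which fell. Mtap, methylthioadenosine phosphorylase, starts the recycling of methionine from a by-product of polyamine synthesis. Intact libraries had 89.3 to 98.8 CPM and deleted replicates 1 to 4 had 38.0, 47.0, 64.1 and 49.1 CPM, with no overlap. The log2 fold change was -0.93 ± 0.16 with an edgeR adjusted p of 0.0147, and the list's median was 0.12. DESeq2 also called Ogdh, a subunit of the enzyme that consumes 2-oxoglutarate in the citric acid cycle. Its genotypes did not overlap, with 103 ± 7.79 CPM in intact and 190.3 ± 67.6 CPM in deleted cultures, a log2 fold change of 0.88 ± 0.23 that missed the edgeR threshold (adjusted p 0.0530). Leaving out intact replicate 1, 2 or 4, or summing littermates, brought the edgeR adjusted p of Mtap to at most 0.0627. Of 10 tested hypoxia genes, which share an oxygen sensor of the same enzyme class as the JmjC proteins, edgeR called 0, with 1 lower and 0 higher by unadjusted p (under 0.05), and DESeq2 called 0. Ldha, the glycolytic lactate dehydrogenase and the most abundant of them, went from 1177 ± 122 to 846 ± 195 CPM (-0.48 ± 0.20, edgeR adjusted p 0.177).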

How the data were processed

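Unnormalized counts per gene, with a gene length, are what the authors deposited for 27179 Entrez identifiers, and the 8 single-library files hold the same values as the table. The tools and build, per the submitters' processing notes, were featureCounts, CASAVA 1.8.2 and mm10. Aligner, strand setting and featureCounts version are not given in the sources used here, so overlapping genes may share reads. Symbols and coordinates came from RefSeq for GRCm38.p6 by Entrez identifier (25275 matched), and transcript GC content and exon overlap from GENCODE.

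All 8 libraries entered edgeR 4.0.16 in R 4.3.3: filterByExpr (minimum count 10), TMM scaling, the robust quasi-likelihood F test and Benjamini-Hochberg adjustment over 13498 genes, with a threshold of 0.05. Fold changes are deleted against intact, and their SE is the size of the log2 value divided by the root of F. CPM and RPKM use TMM-scaled library sizes and the deposited lengths. Log2 CPM used a prior count of 2. On simulated counts for 13343 genes, a small part of them altered, edgeR called 37% of 2-fold and 93% of 4-fold changes in the true direction. The simulation gave both genotypes the same spread, while deleted libraries varied more in the data, so these shares need not hold there. Alternatives were other scalings and filters, DESeq2 1.42.0, limma 3.58.1, litter and replicate blocks, and libraries left out. The members, gene lists and tests were chosen with earlier results of these data known. All 8 libraries are given for members that were called, whose genotypes did not overlap, or that had the highest RPKM of their role. From other lists, called genes are named, or, without a call, the gene of highest RPKM.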

Additional observations from a re-analysis of the deposited data

Results flagged for a closer look

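In 70 sets of 4 libraries, 35 genes in each genotype, 4 held a single value that lay far from the other 3 by Dixon's 95% criterion, with gaps of 0.832 to 0.921 of the range. Chance alone gives about 1 in 20. Kmt2e was at 49.7 CPM in deleted replicate 4, against 41.1 to 42.2 CPM in the other deleted cultures. Setd1b was at 4.36 CPM in intact replicate 4, against 2.10 to 2.28 CPM. Setdb1 was at 105 CPM in the same intact replicate 4, against 85.5 to 88.0 CPM. Kdm2b was lowest in intact replicate 3, at 62.1 CPM against 69.9 to 71.5 CPM.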

How the results depend on the processing

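Over 22 alternatives, 23 of the 35 members kept the sign of their log2 fold change, all 8 H3K4 methyltransferases among them. The median of those 8 ran from 0.36 to 0.63, an alternative added after the values were seen. In at least 1 setting 5 members were called. The share of all genes called in at least 1 setting was not counted, so the 5 cannot be set against it. In the main fit the count of members called was 1. It was 0 with scaling by total counts, with litter as a random block, with littermates summed and with the replicate block, 2 with DESeq2 (Kdm1a and Setdb2), and 0 to 4 with 1 library left out. The count of 4 came without deleted replicate 2 (Kdm1a, Kdm1b, Setdb2 and Kmt5c). The number of all genes called in that same fit is not singled out below, so the 4 are not set against it. Of all genes, 1066 were called (688 higher, 378 lower). It was 673 (309 higher, 364 lower) with total counts, which took the median over all genes from 0.05 to -0.09. It was 2200 with DESeq2, 414 with the litter block, 193 with littermates summed, 319 with the replicate block, 2299 without deleted replicates 1 and 3, and 189 to 2182 with 1 library left out. Whether the replicate numbers pair the samples is not settled. Same-numbered libraries correlated in their deviations at 0.0961 to 0.331, and differently numbered ones at -0.270 to 0.251. Not every library correlated best with its own number. Kat7 passed with limma-voom (-4.92), with a weight per genotype (-4.89) and without deleted replicates 1 and 3 (-8.51), and ran from -4.03 to -2.62 with 1 library left out.

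A further 12 members changed sign in at least 1 alternative, among them Setd4 and Kmt5c, whose log2 fold changes were 0.24 and 0.21. With total counts these were Kdm5b (-0.0632), Setd3 (-0.0371), Kdm3b (-0.0163), Kdm2a (-0.000691) and Kdm8 (-0.0206). The stricter filter gave Nsd1 0.000526, the litter block gave Setd4 -0.0471, and summed littermates gave Setd4 -0.00253 and Setd2 0.0209. Without deleted replicates 1 and 3 they were Kdm3b (-0.0239), Kmt5a (0.18), Kdm7a (0.27) and Kmt5c (-0.17). Without deleted replicates 1 and 4 they were Kdm2b (0.0321), Kmt5a (0.27), Kmt5c (-0.0462) and Setd2 (0.0872). With 1 library left out, the range was -0.18 to 0.10 for Kdm7a, -0.0556 to 0.15 for Kdm5b, -0.18 to 0.17 for Kmt5a, -0.10 to 0.10 for Nsd1, -0.13 to 0.0597 for Setd2, -0.19 to 0.0570 for Kdm2b and -0.0818 to 0.46 for Setd4. Except where fewer samples or genes were used, the cause of these changes was not tested. Counts of at most 8 reads limit what can be said of Kdm4d.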
